A study of Mus musculus with 2 samples.

Results

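Kat2a is a histone acetyltransferase of 2 large co-activator assemblies, SAGA and ATAC. In both assemblies the enzyme sits in a small module with a Tada2 adaptor and Tada3. SAGA adds a structural core, a deubiquitinase module and the activator-binding scaffold Trrap, whereas ATAC has its own Tada2 adaptor and reader subunits such as Zzz3. Kat2b (PCAF) is the paralogue that can fill the place of Kat2a. The report follows 10 partners of Kat2a, chosen by symbol: Kat2b, Tada1, Tada2a, Tada2b, Tada3, Supt7l, Taf6l, Usp22, Trrap and Zzz3. All 10 matched 1 row each of the 27998 genes in the deposited count matrix.

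The cells were MLL-AF9 acute myeloid leukemias of the mouse. The donors were Kat2a Flox/Flox on both sides. Donors of the Kat2a-WT group were Mx1-Cre -/-, and donors of the Kat2a-KO group were Mx1-Cre +/-, which expresses Cre from an interferon-responsive promoter. All donors, controls included, received pIpC, and their marrow was taken 4 to 6 weeks later, lineage-depleted, transduced with a retrovirus carrying MLL-AF9 and a YFP reporter, and transplanted into lethally irradiated recipients. Terminal marrow of 5 Kat2a-WT and 4 Kat2a-KO leukemias was thawed, pooled within the genotype and sorted for live YFP-positive cells, so that each genotype is 1 droplet library made by 3′ counting of unique molecular identifiers (UMIs). Excision was thus induced in the donors and not in the leukemias.

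The WT-labelled library held 3866 cells with 500 or more detected genes and 11669427 UMIs (median 2588.5 UMIs per cell), and the KO-labelled library held 3545 such cells and 7920256 UMIs (median 1884). In all, 28 barcode sequences occurred in both libraries. All 10 granulocyte, 10 monocyte or macrophage and 9 progenitor and primary granule markers were detected in both libraries. Markers of other cells moved with the label: the 6 erythroid markers summed to 208 CPM (UMIs of a gene per 1000000 UMIs of the library) in the WT-labelled library and 537 in the KO-labelled library, the 3 megakaryocyte markers to 17.1 and 117 CPM, the 5 T or NK cell markers to 197 and 319 CPM, the 4 basophil or mast cell markers to 88.4 and 180 CPM (1 of the 4 at 0), and the 2 eosinophil markers to 62.3 and 33.7 CPM. The pools also differed in Xist (275 and 97.2 CPM) and the Y-linked Eif2s3y (12.0 and 90.0 CPM). The part of these differences in the values below was not tested. With 1 library per genotype, pool and genotype cannot be told apart and no test between them was possible. All intervals are exact 95% intervals for counting error only.

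Kat2a itself was counted at 12.2 CPM (142 UMIs) in the WT-labelled library and at 95.8 CPM (759 UMIs) in the KO-labelled library, a 7.88-fold higher level under the KO label. The floxed design leaves the 3′ end of the transcript in place, and a 3′ tag counts that end, so this level checks neither the deletion nor the label. For this reason the libraries are named by their labels (WT-labelled and KO-labelled) throughout, and every direction below rests on that label.

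The promoter sequences below place 4 of the genes. They are shown for the highest partner (Taf6l), the lowest (Tada2b) and the paralogue pair Kat2a and Kat2b. Each run is RefSeq GRCm38.p6 sequence (the build the authors called mm10), 5′ to 3′ on the gene's strand, and ends at the base before the outermost annotated start of the gene. Capitals mark a CACGTG E-box in Taf6l and an ETS core (CCGGAAG, present here as its reverse complement) in Tada2b.
Taf6l, chr19:8786418-8786566, minus strand: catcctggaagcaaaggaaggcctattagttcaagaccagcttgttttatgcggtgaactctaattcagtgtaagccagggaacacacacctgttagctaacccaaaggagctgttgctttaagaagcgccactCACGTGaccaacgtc
Tada2b, chr5:36484286-36484445, minus strand: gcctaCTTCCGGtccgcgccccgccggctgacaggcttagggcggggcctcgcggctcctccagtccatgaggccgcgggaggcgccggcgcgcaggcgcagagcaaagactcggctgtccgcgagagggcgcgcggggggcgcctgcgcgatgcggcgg
Kat2a, chr11:100712468-100712627, minus strand: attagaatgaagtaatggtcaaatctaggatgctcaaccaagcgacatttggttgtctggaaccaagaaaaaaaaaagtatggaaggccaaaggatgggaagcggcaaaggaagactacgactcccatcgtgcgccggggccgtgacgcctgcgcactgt
Kat2b, chr17:53566721-53566860, plus strand: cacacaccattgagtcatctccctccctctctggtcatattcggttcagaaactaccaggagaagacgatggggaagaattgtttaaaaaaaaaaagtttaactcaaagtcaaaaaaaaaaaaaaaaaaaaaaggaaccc

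In all, 8 of the 10 partners had RefSeq promoter entries (11 entries), and the 250 bases before each start were searched on both strands for motifs chosen after the sequences were seen. CCAAT was present in 3 of the 11 entries (Kat2b, Tada2b and Taf6l) and in 33.8% of all 32851 entries. CACGTG was present in 2 (Tada2a and Taf6l), against 6.02% of all entries. CCGGAAG was present in 2 (Tada2b and 1 of the Zzz3 starts), against 6.91%. A match is a match of letters only, and the 3′ counts below do not measure binding at these sites.

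The partners spanned a wide range of levels, and 2 genes of the SAGA core carried most of the signal. Since 1 UMI stands for 1 transcript end, levels of different genes are compared per transcript and need no length correction. Taf6l, a histone-fold core subunit (chromosome 19, 8774487 to 8786417, minus strand), was the highest at 117 CPM (interval 111 to 124) in the WT-labelled library and 124 CPM (116 to 132) in the KO-labelled library. It made up 51.2% and 49.8% of all UMIs of the 10 partners. Tada1, another core subunit (chromosome 1, 166379097 to 166393621, plus strand), followed at 53.3 and 61.2 CPM. Zzz3 came next at 16.9 and 22.5 CPM, and then Tada3 at 15.9 and 13.6 CPM. The other 6 lay at or below 9.97 CPM in both libraries, and Tada2b was the lowest at 1.37 and 0.758 CPM (16 and 6 UMIs). Taf6l and Tada1 stood apart from their neighbours in the order in both libraries. The intervals of Zzz3 and Tada3 overlapped in the WT-labelled library but not in the KO-labelled library, and from Usp22 down to Kat2b each neighbour overlapped the next in both libraries.

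**Figure D1:**
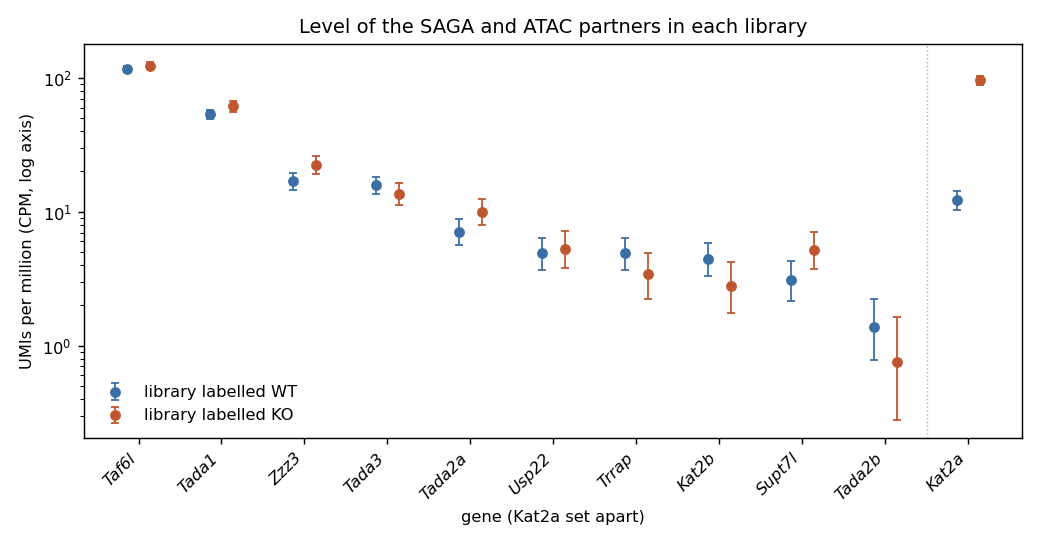
CPM (log axis) of each partner, ordered by level in the WT-labelled library, with Kat2a set apart at the right. Points are the summed level of 1 library and bars are exact 95% Poisson intervals. Taf6l and Tada1 sit above the other partners in both libraries, and the separation between the libraries at Kat2a is not seen at any partner.

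In the acetyltransferase module the paralogue Kat2b (chromosome 17, 53566861 to 53672720, plus strand) was counted 52 times in the WT-labelled library, at 4.46 CPM (3.33 to 5.84), and 22 times in the KO-labelled library, at 2.78 CPM (1.74 to 4.21). The log2 ratio of KO over WT was -0.68, with an interval of -1.47 to 0.06 that includes 0. The paralogue was not counted at a higher level under the KO label. Kat2a outnumbered Kat2b by 2.73-fold (1.97 to 3.83) in UMIs in the WT-labelled library and by 34.5-fold (22.6 to 55.4) in the KO-labelled library. The Kat2a UMIs are 3′ tags, an end that the excised allele keeps, so these ratios need not compare intact transcripts.

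The Tada2 adaptors take part in different assemblies, Tada2b in SAGA and Tada2a in ATAC. Tada2a (chromosome 11, 84078920 to 84129600, minus strand) was at 7.11 CPM in the WT-labelled library and 9.97 CPM in the KO-labelled library (log2 ratio 0.49, 0.02 to 0.95). Tada2b (chromosome 5, 36473670 to 36484285, minus strand) gave a log2 ratio of -0.86, with an interval from -2.50 to 0.57 that includes 0. Tada2b ends tail to tail with Grpel1, a gene on the opposite strand that was counted at 138 and 154 CPM. Tada3, which bridges enzyme and adaptor in both assemblies (chromosome 6, 113366025 to 113377883, minus strand), had a log2 ratio of -0.22 (-0.57 to 0.13). Summed over Kat2b, Tada2a, Tada2b and Tada3, the module was at 28.8 CPM under the WT label and 27.1 CPM under the KO label (log2 ratio -0.09, -0.34 to 0.17).

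The 3 partners that belong to the SAGA core, which holds the assembly together, were each at a higher value in the KO-labelled library, and their sum was 174 and 190 CPM (log2 ratio 0.13, 0.03 to 0.23). Supt7l, a histone-fold subunit (chromosome 5, 31514564 to 31527807, minus strand), had the largest ratio of the 10 partners towards the KO label: 36 UMIs at 3.08 CPM (2.16 to 4.27) against 41 UMIs at 5.18 CPM (3.71 to 7.02), a log2 ratio of 0.75 (0.07 to 1.43). Tada1 had a log2 ratio of 0.20 (0.03 to 0.37) and Taf6l one of 0.08 (-0.04 to 0.20). Core subunits outside the 10 partners lay on both sides of 0, with Taf10 at -0.34 (-0.53 to -0.16) and Supt20 at -0.04 (-0.26 to 0.18) below. Above 0 were Taf12 at 0.06 (-0.10 to 0.22), Supt3 at 0.17 (-0.16 to 0.51) and Taf5l at 0.66 (0.39 to 0.94). Taf9b and Taf9 were also above 0, at 1.22 (0.45 to 2.02) and 1.98 (1.56 to 2.40). These core subunits are named here after their values were seen. The deep count of Taf6l bounds any difference between these 2 libraries to a narrow band, whereas the low counts of Supt7l do not.

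Usp22, the ubiquitin protease of SAGA (chromosome 11, 61151785 to 61175055, minus strand), was at 4.88 CPM in the WT-labelled library and 5.30 CPM in the KO-labelled library (log2 ratio 0.12, -0.49 to 0.72). Trrap, the scaffold that SAGA shares with the TIP60 acetyltransferase complex (chromosome 5, 144767732 to 144859778, plus strand), was at 4.88 and 3.41 CPM (log2 ratio -0.52, -1.24 to 0.17). Zzz3, a zinc finger subunit of ATAC (chromosome 3, 152395473 to 152462826, plus strand), was at 16.9 CPM (14.6 to 19.4) and 22.5 CPM (19.3 to 26.0), with a log2 ratio of 0.41 (0.11 to 0.71). The 3′ kilobase of Zzz3 overlaps Ak5, and that of Tada1 overlaps Pogk (1.29 and 2.02 CPM), each on the opposite strand. Whether counting used strand was not given in the sources used here.

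Over the 10 partners, 6 log2 ratios were above 0 and 4 below, with a median of 0.10, against a median of -0.03 over the 10704 genes with 20 or more UMIs. Supt7l was the 1 partner that was higher by 1.5-fold or more in the KO-labelled library, where 8.45% of all genes were. Kat2b and Tada2b were the 2 that were lower by as much, against 14.1% of all genes. Counts of 1 and 2 in 10 partners lie near these shares and are read as no result about the partners. Without the globin-led cluster described below the same 1 and 2 were counted, where 7.35% of all genes were higher and 15.3% lower. Cells with 1000 or more genes gave 3 higher and 1 lower of the 9 partners with 20 UMIs left. There, 9.37% of all genes were higher and 15.01% lower. The summed level was 229 CPM (220 to 238) in the WT-labelled library and 248 CPM (237 to 260) in the KO-labelled library, a log2 ratio of 0.12 (0.03 to 0.20).

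**Figure D2:**
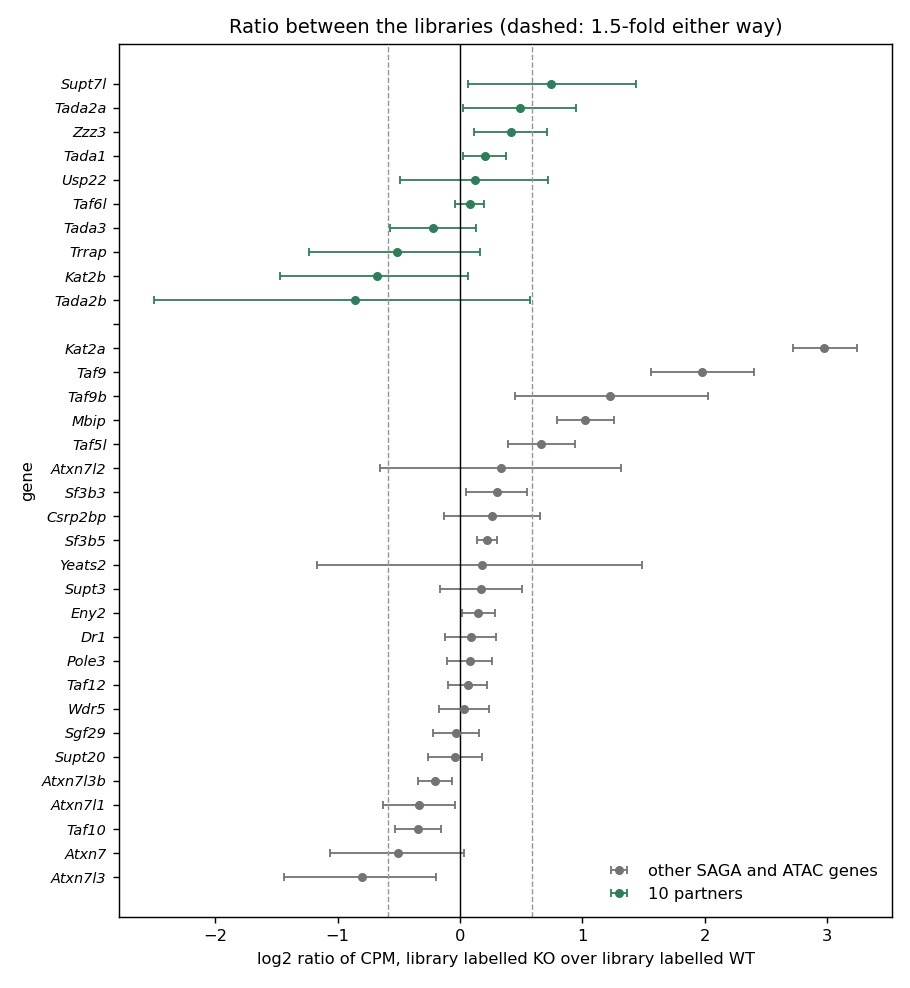
Log2 ratio of CPM (KO label over WT label) for the 10 partners (green, top) and 23 other SAGA and ATAC genes (grey). Bars are exact 95% intervals for counting error and dashed lines mark 1.5-fold. The partners lie between -0.86 and 0.75, and Kat2a lies at 2.98.

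Of the 23 other SAGA and ATAC genes, Kat2a included, 16 log2 ratios were above 0 and 7 below, beside 5146 above and 5558 below over all genes. The 5 that were higher by 1.5-fold or more under the KO label were Kat2a, Taf9, Taf9b, Mbip and Taf5l, where 8.45% of all genes were higher by as much and 14.1% lower. Taf9, a histone-fold subunit that SAGA shares with the general factor TFIID, was at 5.74 and 22.6 CPM (log2 ratio 1.98, 1.56 to 2.40). Taf9 lies on the same strand as the overlapping gene Ak6, which was at 38.4 and 37.1 CPM, so that the split of counts between these 2 genes is uncertain. Its paralogue Taf9b was at 2.06 and 4.80 CPM (log2 ratio 1.22, 0.45 to 2.02), and the core subunit Taf5l at 18.3 and 29.0 CPM (log2 ratio 0.66, 0.39 to 0.94). Mbip, an ATAC subunit, was at 23.1 and 46.8 CPM (log2 ratio 1.02, 0.79 to 1.25). The 1 gene that was lower by 1.5-fold or more was Atxn7l3, the adaptor through which Usp22 is held and activated, at 7.03 and 4.04 CPM (log2 ratio -0.80, -1.44 to -0.19). Without Kat2a the 22 genes had a median log2 ratio of 0.12, beside 0.10 for the 10 partners.

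Detection in single cells was sparse, and shares are given at the deposited and at an equal depth. Taf6l had a UMI in 25.5% of cells (exact binomial interval 24.2 to 26.9) in the WT-labelled library and in 19.5% (18.3 to 20.9) in the KO-labelled library. Tada1 was detected in 13.4% and 11.1% of cells. These 2 were the only partners found in at least 10% of all kept cells, as were 2728 genes outside the SAGA and ATAC lists. The matrix holds 27998 genes. Tada2b was found in 0.362% and 0.169% of cells. No cell type among these cells is known to lack SAGA or ATAC, so no share could be set as the background from free RNA. When each cell was thinned to 1000 UMIs, which left out 66 and 194 cells, Taf6l was detected in 10.1% of cells of both libraries and Tada1 in 4.34% and 5.43%. The number of partners with the higher share in the KO-labelled library was 2 as deposited and 5 after thinning. The matching number over all genes was not computed, so these counts are read as no result about the partners. A cell without any UMI of the 10 partners was the usual case: 56.5% and 64.5% of cells as deposited, and 81.4% and 80.6% after thinning. The most partners detected in 1 cell was 4 in each library.

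**Figure D3:**
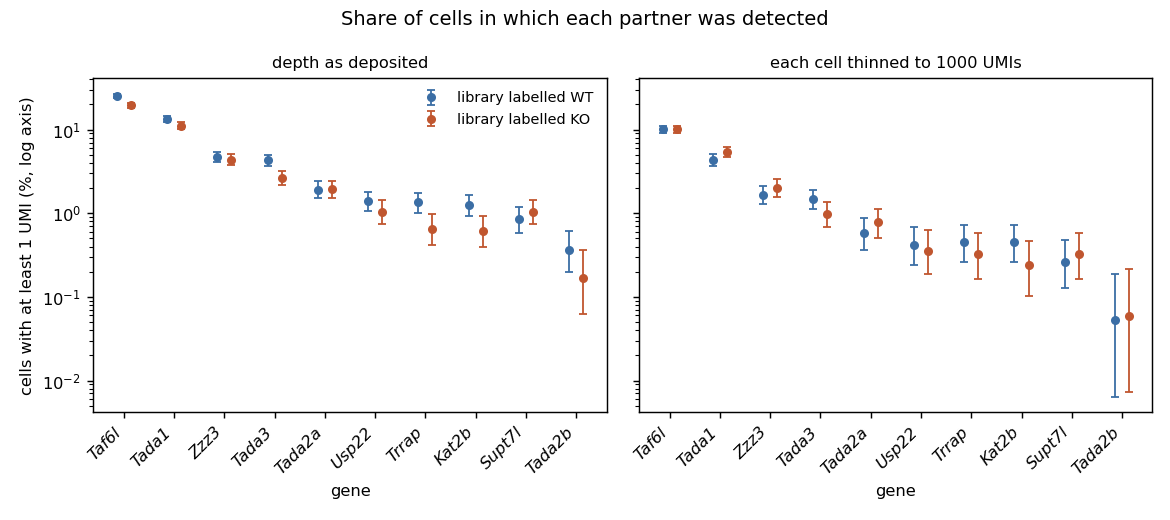
Share of cells with at least 1 UMI of each partner (log axis), with the depth as deposited on the left and each cell thinned to 1000 UMIs on the right. Bars are exact 95% binomial intervals. The gap between the libraries at Taf6l, 25.5% against 19.5%, closes to 10.1% in both after thinning.

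Cell-to-cell variation was described in the same way. The coefficient of variation (CV) of the counts scaled to 10000 UMIs per cell was 2.28 for Taf6l in the WT-labelled library and 2.52 in the KO-labelled library, and 3.11 and 3.68 for Tada1. The median log2 ratio of CVs over the partners was 0.29, beside 0.25 over all genes with 20 or more UMIs. After thinning it was -0.049 over the partners and 0.05 over all genes. Thinned Fano factors, the variance over the mean, were 1.21 and 1.23 for Taf6l and 1.09 and 1.16 for Tada1, beside all-gene medians of 1.10 and 1.16. The highest of the partners was that of Trrap in the KO-labelled library, at 1.46 (1.11 under the WT label), and Usp22 had 0.996 and 1.28. After thinning, Trrap was detected in only 11 cells of the KO-labelled library (at most 3 UMIs in a cell). Usp22 was detected there in 12 cells (at most 2 UMIs), so a few cells set both values. The highest count of Tada1 in a single cell was 11 UMIs in the WT-labelled library and 19 in the KO-labelled library.

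The partners differed in level between kinds of leukemia cell. Cells were split into 12 k-means clusters from which the partners and the other SAGA and ATAC genes had been left out. Summed over both libraries, the 10 partners ranged from 155 CPM (136 to 176) in cluster 3, a granulocyte-like cluster led by Ltf, Mmp9 and Stfa3, to 299 CPM (265 to 335) in cluster 12, a mitotic-like cluster led by S100a10, Irf8 and Hist1h1b. The range was 1.92-fold (1.61 to 2.30) between clusters, and was read off the extremes. In the WT-labelled library alone cluster 6 was the highest, at 302 CPM, and cluster 12 was at 295 CPM. The other granulocyte-like cluster, led by Gal, Mogat2 and S100a9, was also low at 173 CPM, and the monocyte or macrophage-like cluster 6, led by Ccl6, Apoe and Wfdc17, was high at 298 CPM.

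Single partners did not share 1 order over the clusters. With both libraries pooled, Taf6l was highest in the monocyte or macrophage-like cluster 6, at 191 CPM (162 to 224), and lowest in granulocyte-like cluster 3, at 81.9 CPM (68.1 to 97.7). Tada1 was at 42.2 CPM (29.2 to 58.9) in that cluster 6 and was highest in mitotic-like cluster 12, at 84.0 CPM (66.7 to 104), with 73.7 and 70.1 CPM in mitotic-like clusters 5 and 10. These extremes of Taf6l and the peak of Tada1 fell in the same clusters in each library. Zzz3 was highest in cluster 12, at 34.2 CPM (23.6 to 48.1), when pooled and in the WT-labelled library, but in the KO-labelled library it was highest in cluster 10, at 34.6 CPM, with cluster 12 at 27.5 CPM. Its pooled level was lowest in the other monocyte or macrophage-like cluster, number 11, at 5.82 CPM (2.14 to 12.7). Tada3 was highest in cluster 8, which was led by Mcpt8, Nras and Hras and was left unnamed, at 23.1 CPM (17.8 to 29.5). Trrap, Usp22 and Kat2b peaked in different clusters in each library, on 11 or fewer UMIs each.

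Within the 12 clusters, the summed level was higher in the KO-labelled library in 10, with log2 ratios from -0.23 to 0.26, and the interval included 0 in every cluster. With 16 clusters it was higher in 9 and lower in 7 (-0.50 to 0.38), so the split depended on the clustering. The clusters with the lower value under the KO label were the monocyte or macrophage-like clusters 6 and 11. For single partners an interval was taken in each of the 12 clusters (11 for Tada2b). With this many 95% intervals, some are expected to exclude 0 by counting error alone. No share over all genes was computed by cluster, so those named next are read as no result about the partners. Taf6l had an interval above 0 in 3 clusters: cluster 2, led by Elane, Mpo and Nkg7 (109 and 147 CPM), cluster 4, led by the S-phase genes Rrm2, Tyms and Pcna (102 and 145 CPM), and mitotic-like cluster 5 (95.4 and 129 CPM). Zzz3 had one in cluster 8, at 15.8 and 31.7 CPM, Tada2a in cluster 10 on 17 UMIs, and Supt7l in cluster 7 on 10 UMIs. Intervals below 0 were those of Tada3 in cluster 1 (17.8 and 6.50 CPM) and Trrap in cluster 5 (5 and 0 UMIs). Cluster 9 held 25 cells of the WT-labelled library and 521 of the KO-labelled library. It was led by globin genes together with MHC class II genes and was left unnamed, and its partners summed to 217 CPM. Cluster shares differed between the libraries elsewhere too, such as 7.86% and 3.47% of cells for cluster 11.

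**Figure D4:**
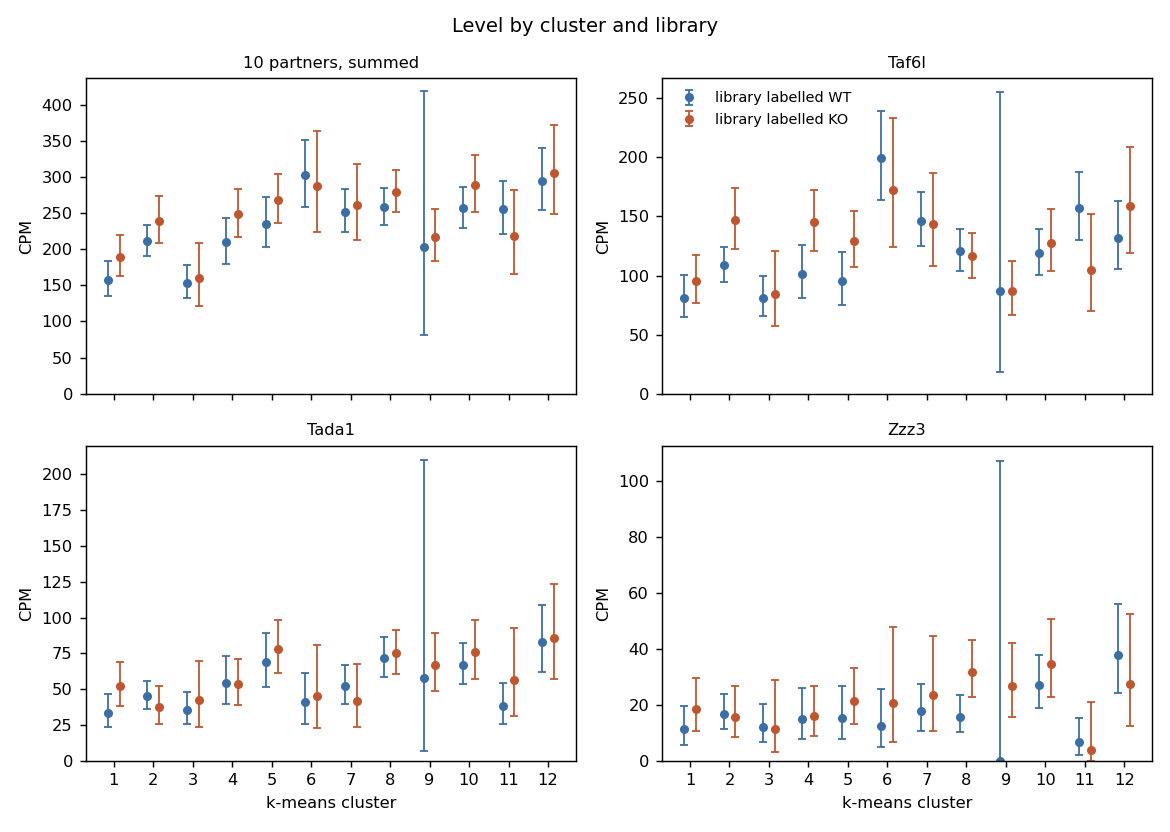
CPM by k-means cluster and library for the sum of the 10 partners, Taf6l, Tada1 and Zzz3, with exact 95% Poisson intervals and axes from 0. Taf6l peaks in cluster 6, whereas Tada1 and Zzz3 do not; the wide bars at cluster 9 stem from 25 cells of the WT-labelled library.

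The genes with the most similar pattern were ranked by Spearman's rho of CPM over 23 sums of cells (cluster by library, 50 or more cells each), among 4055 genes with 500 or more UMIs. The points come from 2 libraries, differ in depth and are given as a description. For the summed partners they were 1110059E24Rik (rho 0.85), Nubp1 (0.85) and Asna1 (0.81). For Taf6l they were Cisd2 (0.78), 1110059E24Rik (0.76) and Nkiras2 (0.75), and for Tada1 they were Ppig (0.89), Cks1brt (0.89) and Dnlz (0.88). Cks1brt has a near-identical relative, Cks1b, and its counts are uncertain. Kat2a had a rho of 0.32 with the summed partners.

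In thinned cells, those with a Kat2a UMI were compared with those without. In the WT-labelled library, 36 cells with a Kat2a UMI held 5 UMIs of the partners, at 139 CPM (45.1 to 324), beside 220 CPM (206 to 236) in the 3764 cells without. In the KO-labelled library, 244 cells with a Kat2a UMI held 48, at 197 CPM (145 to 261), beside 237 CPM (220 to 255) in the 3107 cells without. In both libraries the 2 intervals overlapped. No interval of the ratio was taken, and overlap alone does not decide whether the levels differed.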

How the data were processed

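Per the labels, the authors processed both 10x libraries with Cell Ranger 1.3.1 on mm10 and deposited 1 matrix of raw UMI counts with 8309 barcodes. Their methods name another Cell Ranger version. The annotation release was not given in the sources used here. Barcode suffixes were assigned to the libraries from the study's published analysis code, which treats one suffix as the Cre-positive library. The members, gene lists and comparisons were chosen with earlier results of these data known.

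Cells with 500 or more genes were kept. The study also filtered transcripts seen in few cells and states slightly fewer cells per library, so its filter was not rebuilt exactly. Counts were summed per library and divided by the total (CPM). CPM intervals were exact Poisson, shares exact binomial (Clopper-Pearson), and ratios exact conditional intervals. UMIs of 1 library are no replicates, and the intervals cover counting error only. A ratio was called past 1.5-fold among genes with 20 or more UMIs. For k-means (12 clusters, 20 principal components, 10 starts, scikit-learn 1.9.0), the 500 most variable genes of each library were used. A cluster was named "-like" where 3 or more listed markers were 1.5-fold up, with 2 or more of them (and more than of any other class) among its 10 leading genes, and 3 or more MHC class II genes or Cd74 there left it unnamed, a condition added after seeing cluster 9. Scrublet (scanpy 1.11.5) called 12 and 0 doublets, so it did not work here and no cell was removed. TMM factors came from edgeR 4.0.16 and positions from GENCODE M21. The ratio code was tested on simulated data, and the thinning code was checked on some of the deposited cells. Named genes were all members, Kat2a, other SAGA and ATAC genes past 1.5-fold, the other SAGA core subunits, and the 3 most similar genes of each pattern.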

Additional observations from a re-analysis of the deposited data

Results flagged for a closer look

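Cells with fewer than 500 detected genes were outside every comparison, yet held UMIs of the partners above the limit that a count of 0 allows. In the WT-labelled library, 203 such cells held 43 UMIs of the 10 partners, at 193 CPM (139 to 260), beside a limit of 13.4 CPM. In the KO-labelled library, 695 such cells held 126 UMIs, at 189 CPM (158 to 226), beside a limit of 4.51 CPM. Taf6l made up 23 and 85 of these UMIs. With these cells included, the log2 ratio of the summed level was 0.09.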

How the results depend on the processing

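No paired analysis was possible because each genotype had a single library. The summed level stayed above 0 and within its counting interval under every alternative run (log2 ratios from 0.09 to 0.18), and the median log2 ratio stayed above 0 (from 0.04 to 0.20). The number of partners higher by the fold limit was 3 of 9 tested in cells with 1000 or more genes (9.37% of all genes) and 0 after thinning (of 9; 10.2%), at a fold limit of 2 (of 10; 3.04%) and with a minimum of 100 UMIs (of 5; 5.43%). The number lower was 1 of 9 in cells with 1000 or more genes (15.01% of all genes) and in libraries matched on total UMIs (2819 cells each; 16.2%), and 0 at a fold limit of 2 (5.86%) and with a minimum of 100 UMIs (9.90%). After thinning, 5 partners had the higher share of cells under the KO label (2 as deposited, with no share over all genes computed). The thinned median log2 ratio of CVs was -0.049, and the log2 ratio of Tada2b turned to 0.18, on 2 UMIs in each library. In cells with 1000 or more genes Tada2b was at -2.45 and Kat2b at -1.45. Tada3 was at -0.60 after thinning, and Trrap at -1.31 with equal weight for each cluster. Supt7l was at 0.32 after thinning, with a UMI in 10 and 11 cells, and at 1.18 in libraries matched on total UMIs. The cause of these moves was not tested. Of 10 alternatives per partner, all kept the sign except for Tada2b and Usp22, each under thinning. Scaling by TMM or by median-of-ratios size factors moved every ratio by the same small amount, so it could turn none of these signs. Leaving out shared barcodes removed only 45 kept cells. The alternatives without shared barcodes and without cluster 9 were added after seeing the data. Without its 10 highest cells Tada2b had no UMI left in the KO-labelled library and no CV. Depth limits 6 of the partners, which had 162 or fewer UMIs over both libraries.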
